A study of Homo sapiens with 27 samples.

Results

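The MYC, MAX and MXD network is a family of transcription factors that compete for 1 shared partner, and 10 of its genes were followed across the 27 arrays of the study. They were MYC and MYCL, their partner MAX, the antagonists MXD1, MXI1, MXD3, MXD4, MNT and MGA, and MLX, the partner protein of a neighbouring branch. The genes were chosen by name, and each was represented by the single-gene probe set with the highest mean over all arrays. All 10 passed the filter on low signal and were among 12390 genes tested. MYCL passed only because of treated EBC-1 and MKN-45 arrays: it reached the array median on 12 of 27 arrays and on none of the 9 DMSO arrays, so it had to differ between groups. MYC reached it on 24 of 27 arrays. The other 8 reached it on all arrays.

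Each group held 3 arrays of human cancer cells. EBC-1 is a non-small cell lung cancer line and MKN-45 a gastric cancer line, and per the labels both depend on the receptor tyrosine kinase MET. HCC827, another non-small cell lung cancer line, has active c-Met without depending on it and served as the negative control. SGX-523, which blocks the kinase activity of MET, was added at 1 uM, and cells were taken after 24 h or 48 h. Control cells of every line had DMSO, the solvent. No time is given for DMSO, so both times were set against the same 3 DMSO arrays of their line, and the comparisons within a line share those controls. All groups are long-term cultures of 1 line each, so a difference between lines is a difference between 3 lines and not between classes of tumour. Replicates are labelled as biological, with no separate cultures named, so p-values measure only the spread between these arrays, which may be technical.

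MYC and its relatives bind DNA only as dimers with MAX. A MYC-MAX dimer on the E-box, a short palindromic DNA motif, activates genes of ribosome production, nucleotide synthesis and metabolism, and MYC is a classical growth factor response gene. The MXD proteins (MXD1, MXI1, MXD3, MXD4), MNT and MGA also dimerize with MAX, bind the same motif and recruit repressors, and several of them rise when cells leave the cycle. MLX pairs with MLXIP (MondoA) and MLXIPL (ChREBP), factors that respond to glucose, and can also pair with MXD1, MXD4 and MNT.

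Of the promoters of these genes, 3 held the E-box (CACGTG) within 250 bases before the start of transcription, and these are shown because the network's own motif lies in them. The motif is a palindrome, so 1 search covers both strands. Capitals mark the E-box, each sequence reads 5′ to 3′ on the strand of its gene, and all come from RefSeq (GRCh38.p14). The windows are chr4:2262110-2262359 on the minus strand for MXD4, chr17:2401061-2401310 on the minus strand for MNT, and chr17:42566850-42567099 on the plus strand for MLX.
MXD4: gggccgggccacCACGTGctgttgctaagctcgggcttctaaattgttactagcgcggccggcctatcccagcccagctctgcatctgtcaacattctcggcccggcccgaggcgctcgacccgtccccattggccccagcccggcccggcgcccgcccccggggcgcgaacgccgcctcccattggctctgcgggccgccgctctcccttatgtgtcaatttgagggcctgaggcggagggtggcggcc
MNT: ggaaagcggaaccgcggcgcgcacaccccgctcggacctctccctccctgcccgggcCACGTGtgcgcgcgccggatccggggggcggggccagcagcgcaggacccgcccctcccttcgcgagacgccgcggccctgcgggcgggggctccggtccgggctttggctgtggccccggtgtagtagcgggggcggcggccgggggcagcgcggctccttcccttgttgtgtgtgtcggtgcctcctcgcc
MLX: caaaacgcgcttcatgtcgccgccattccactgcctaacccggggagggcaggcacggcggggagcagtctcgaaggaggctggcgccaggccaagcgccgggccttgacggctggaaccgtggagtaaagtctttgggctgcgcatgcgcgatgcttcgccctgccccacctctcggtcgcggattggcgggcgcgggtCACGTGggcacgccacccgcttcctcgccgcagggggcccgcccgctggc
The E-box began 238 bases before the start in MXD4, 193 in MNT and 50 in MLX. RefSeq starts were matched for 9 of the 10 genes (14 windows), all but MYC, for which none is shown. The E-box occurred in 6.34% of all 35116 promoter windows of this length. A motif bound by FOXO factors (GTAAACA, both strands) was found in 1 window of MXI1, 151 bases before the start, and in 2.98% of all windows. A match says only that the letters are present.

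Array quality enters several results below. Array medians were 5.02 to 5.14 in EBC-1 and MKN-45 and 5.71 to 5.73 in HCC827, so levels are set across HCC827 and the other lines only with that offset in view. HCC827 SGX-523 24 h replicate 3 stood apart: its residual SD was 0.367, and no array of another group exceeded 0.115. The median standard error (SE) of a change was 0.11 log2 units, a precision set by having 3 arrays per group. The 45 probe sets for external control transcripts were higher on treated than on DMSO arrays by 0.33 to 0.35 in EBC-1 and MKN-45 and differed by -0.10 and -0.08 in HCC827. Small changes were therefore also read after shifting each array by its control median. That shift moved the median change of all genes in the MET-dependent lines from between 0.036 and 0.067 to between -0.30 and -0.27. At 24 h in EBC-1 it turned 3861 higher and 3475 lower genes into 1992 and 5957, and at 48 h in HCC827 it turned 1433 and 1322 into 1398 and 395. What moved these controls was not tested. The epithelial genes EPCAM, KRT8, KRT18 and KRT19 lay above the array median on every array, CDH1 on none of the 9 EBC-1 arrays. The squamous genes KRT5, SOX2 and DSG3 were on no EBC-1 array above the median. In MKN-45, SOX2 was above it on all 9 arrays, KRT5 on 5 and DSG3 on none. In HCC827 only KRT5 was, on 1 of 9. The gastric TFF1 and TFF3 were above it on all 9 MKN-45 arrays, TFF2 on 3 and CLDN18 and GKN1 on none of them. CDX2 and CDH17, intestinal genes, were above it on all arrays of both EBC-1 and MKN-45. The lung genes NKX2-1, SFTPC and NAPSA were above it on all arrays of all 3 lines. Their line means lay only 0.53 to 1.09 above the array median in EBC-1 and MKN-45, and 0.87 to 3.85 above it in HCC827. SFTA2 was above it on all HCC827 arrays only, and SFTPB on 3 of 9 EBC-1, 1 of 9 MKN-45 and 6 of 9 HCC827 arrays. Of 6 fibroblast markers, COL1A1, COL1A2, COL3A1 and DCN were above it on no array of any line, LUM was above it on all EBC-1 arrays and 2 of 9 MKN-45 arrays, and PDGFRB on 8 of 9 EBC-1, 5 of 9 MKN-45 and all HCC827 arrays. Of 5 leukocyte markers, PTPRC and CD3E were above it on no array of any line, CD14 was on all EBC-1 arrays only, CD68 on all EBC-1 and HCC827 arrays and 2 of 9 MKN-45 arrays, and LYZ on all MKN-45 arrays (6.41 above the median on average) and 6 of 9 EBC-1 arrays.

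MYC fell strongly in both MET-dependent lines and did not pass the test in HCC827. All changes below are log2 differences on the deposited scale with the SE of limma's fit, and called means a Benjamini-Hochberg adjusted p under 0.05 over 12390 genes. In EBC-1 the MYC signal was 10.91, 10.84 and 10.91 with DMSO, 7.48, 7.65 and 7.59 at 24 h, and 7.49, 7.56 and 7.49 at 48 h. The treated arrays lay far below the DMSO arrays, and both times lay at one level. MYC was 9.95-fold lower at 24 h (log2 change -3.31 ± 0.08, SE) and 10.3-fold lower at 48 h (-3.37 ± 0.08), with limma adjusted p of 4.34e-21 and 1.60e-21. In MKN-45 it was 9.51, 9.40 and 9.51 with DMSO, 4.54, 4.42 and 4.71 at 24 h, and 5.20, 5.46 and 5.11 at 48 h. All 3 arrays at 24 h were below their array median, so the size of that fall is less certain than its direction. MYC was 30.2-fold lower at 24 h (-4.92 ± 0.08) and 18.6-fold lower at 48 h (-4.22 ± 0.08), with limma adjusted p of 6.60e-24 and 4.03e-23. With 64 added to the linear signal, which damps low values, the 24 h fall was -3.14.

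In HCC827, MYC was 11.91, 11.97 and 11.89 with DMSO, 11.95, 12.01 and 11.84 at 24 h, and 12.15, 12.13 and 12.11 at 48 h. The 24 h arrays overlapped the DMSO arrays, and the 48 h arrays lay just above them. The change was 0.01 ± 0.08 at 24 h and 0.21 ± 0.08 at 48 h (limma adjusted p = 0.927 and 0.059). The 48 h value was called by limma in a fit of HCC827 alone (adjusted p = 0.0385) and once HCC827 SGX-523 24 h replicate 3 was dropped from the fit (adjusted p = 0.0153). The response differed between each MET-dependent line and HCC827 at both times, by -3.33 ± 0.11 to -4.93 ± 0.11. The fall was larger in MKN-45 than in EBC-1, with a difference (EBC-1 minus MKN-45) of 1.60 ± 0.11 at 24 h and 0.84 ± 0.11 at 48 h (limma adjusted p = 1.96e-11 and 6.93e-07), but with 64 added it was 0.20 and -0.07.

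From high to low, the MYC level ran from HCC827 (12.13 at 48 h, 11.93 at 24 h, 11.92 with DMSO) through EBC-1 with DMSO (10.89 ± 0.04, SD, n = 3) and MKN-45 with DMSO (9.47 ± 0.07) to treated EBC-1 (7.57 ± 0.08 and 7.52 ± 0.04) and treated MKN-45 (5.26 ± 0.18 at 48 h, 4.56 ± 0.15 at 24 h). The HCC827 groups did not differ from each other past the threshold (limma adjusted p of 0.059 to 0.927), nor did EBC-1 at 24 h and 48 h (0.748). Levels of treated EBC-1 were not tested against those of MKN-45, with DMSO or treated. In MKN-45, MYC was higher at 48 h than at 24 h by 0.70 ± 0.08 (limma adjusted p = 2.98e-07). The DMSO level of EBC-1 less that of HCC827 was -1.03 ± 0.08, and -0.35 with each array centred on its median. MYC had 1 probe set, so no other probe set checks it.

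**Figure D1:**
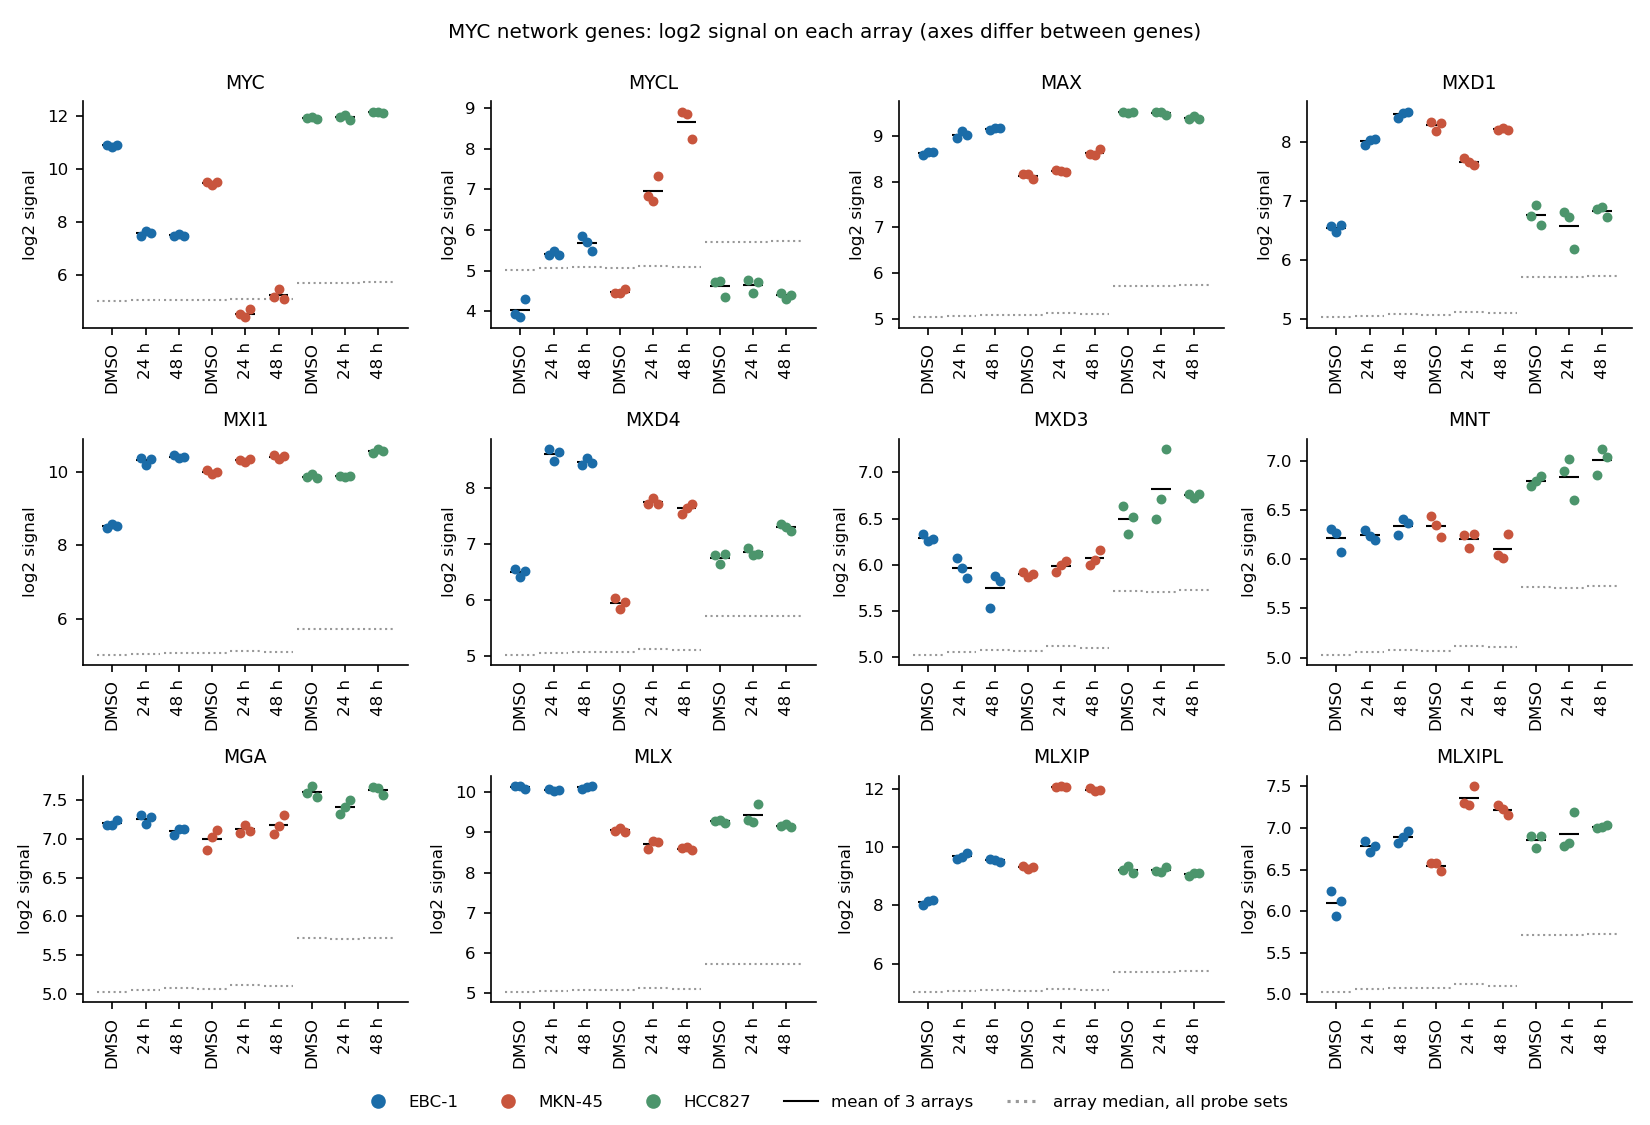
Log2 signal (vertical axes, which differ between genes) of the 10 network genes and of MLXIP and MLXIPL on each of 27 arrays (points, colour by line), grouped by DMSO and SGX-523 at 24 h and 48 h. Black lines are means of 3 arrays and dotted lines the array medians. MYC falls from about 10.89 and 9.47 to 7.52 and 5.26 at 48 h in EBC-1 and MKN-45, while MYCL, MXD4 and MLXIP lie higher on all treated arrays of both lines.

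MYCL, the paralogue L-MYC that also dimerizes with MAX, moved the opposite way to MYC. In MKN-45 it was 4.45, 4.46 and 4.56 with DMSO, 6.84, 6.72 and 7.33 at 24 h, and 8.91, 8.86 and 8.24 at 48 h. No array of a later group overlapped an earlier one. Because it passed the filter only through treated arrays, the p-values of its differences from DMSO are those of a fit with no filter. It was higher by 2.47 ± 0.17 at 24 h and by 4.18 ± 0.17 at 48 h (limma adjusted p = 1.92e-12 and 3.23e-17), and the step from 24 h to 48 h was 1.71 ± 0.17 (limma adjusted p = 4.42e-08). In EBC-1 it was 3.93, 3.86 and 4.31 with DMSO, 5.38, 5.49 and 5.38 at 24 h, and 5.85, 5.71 and 5.49 at 48 h. The changes were 1.38 ± 0.17 and 1.65 ± 0.17 (limma adjusted p = 9.84e-08 and 4.02e-09 with no filter), which differed from those in MKN-45 by -1.09 ± 0.24 and -2.53 ± 0.24. All DMSO arrays were below the array median, so these sizes are uncertain: with 64 added the 24 h change in EBC-1 was 0.41. In HCC827 the values lay between 4.32 and 4.77 in all 9 arrays, all below the array median, and the changes were 0.03 ± 0.17 and -0.22 ± 0.17. Of 3 kept MYCL probe sets, all 3 were called higher in MKN-45 at both times, and 1 and 2 in EBC-1. MYCN, the third MYC gene, reached the array median on 3 of 27 arrays, and its changes of -0.10 to 0.24 were not called.

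MAX, the obligate partner, rose modestly in EBC-1. It was 8.59, 8.65 and 8.66 with DMSO, 8.95, 9.11 and 9.03 at 24 h, and 9.13, 9.17 and 9.18 at 48 h, with changes of 0.40 ± 0.05 and 0.53 ± 0.05 (limma adjusted p = 4.15e-07 and 3.55e-09). In MKN-45 it was 8.17, 8.16 and 8.07 with DMSO, 8.26, 8.24 and 8.22 at 24 h, and 8.61, 8.59 and 8.71 at 48 h. Its changes there were 0.11 ± 0.05 (adjusted p = 0.0815) and 0.50 ± 0.05 (8.59e-09). HCC827 gave -0.02 and -0.12, neither called. After the external-control shift the called changes were 0.07, 0.18 and 0.17 (adjusted p = 0.503, 0.0851 and 0.0859), and the 24 h value in MKN-45 was -0.24, so the MAX calls rest on the scaling. Of 8 kept probe sets, 3 were called higher in EBC-1 at each time and in MKN-45 at 48 h.

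MXD4 (MAD4), an antagonist linked to withdrawal from the cell cycle, rose in both MET-dependent lines. In EBC-1 it was 6.56, 6.42 and 6.53 with DMSO, 8.70, 8.48 and 8.64 at 24 h, and 8.42, 8.54 and 8.46 at 48 h. It was 4.31-fold and 3.92-fold higher (2.11 ± 0.08 and 1.97 ± 0.08), with limma adjusted p of 1.73e-17 and 4.94e-17. In MKN-45 it was 6.04, 5.84 and 5.97 with DMSO, 7.73, 7.83 and 7.72 at 24 h, and 7.54, 7.66 and 7.72 at 48 h. It was 3.51-fold and 3.23-fold higher (1.81 ± 0.08 and 1.69 ± 0.08), with limma adjusted p of 4.01e-16 and 1.26e-15. No treated array overlapped a DMSO array in either line. All 5 kept MXD4 probe sets were called higher in these 4 comparisons, by 0.37 to 2.11, and with the mean of its probe sets the change in EBC-1 at 24 h was 1.16. In HCC827 it was 6.80, 6.66 and 6.83 with DMSO, 6.94, 6.81 and 6.83 at 24 h, and 7.35, 7.31 and 7.24 at 48 h. Only the 48 h arrays lay apart from DMSO, by 0.54 ± 0.08 (limma adjusted p = 1.45e-05), and there 1 of 5 probe sets was called. The responses in EBC-1 and MKN-45 exceeded that of HCC827 by 1.15 ± 0.11 to 2.01 ± 0.11 at the matched times.

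MXI1 (MAD2) responded most in EBC-1 and also rose in HCC827 at 48 h. In EBC-1 it was 8.47, 8.57 and 8.53 with DMSO, 10.39, 10.19 and 10.36 at 24 h, and 10.46, 10.38 and 10.39 at 48 h, a rise of 1.78 ± 0.05 and 1.88 ± 0.05 (limma adjusted p = 2.95e-19 and 7.21e-20). All 5 kept probe sets were called higher there, by 0.88 to 1.88. In MKN-45, where the DMSO arrays ran from 9.94 to 10.04, it was 10.31, 10.26 and 10.35 at 24 h and 10.45, 10.35 and 10.44 at 48 h. These changes of 0.31 ± 0.05 and 0.42 ± 0.05 were called (1.48e-05 and 2.08e-07), but only 1 of 5 probe sets was, and after the external-control shift they were -0.03 and 0.09 (adjusted p = 0.741 and 0.37). With the mean of its probe sets they were 0.10 and 0.17 (0.424 and 0.144).

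In HCC827, MXI1 was 9.85, 9.93 and 9.83 with DMSO, 9.89, 9.87 and 9.89 at 24 h, and 10.50, 10.62 and 10.55 at 48 h. The 24 h arrays overlapped DMSO and the 48 h arrays lay above it by 0.69 ± 0.05 (limma adjusted p = 1.88e-09), with 3 of 5 probe sets called. The response at 48 h was larger in EBC-1 than in HCC827 by 1.19 ± 0.08 and smaller in MKN-45 than in HCC827, with a difference of -0.28 ± 0.08 (limma adjusted p = 1.77e-12 and 0.00349).

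MXD1 (MAD1), an antagonist induced in differentiating cells, went opposite ways in the MET-dependent lines at 24 h. In EBC-1 it rose from 6.57, 6.47 and 6.60 with DMSO to 7.94, 8.03 and 8.04 at 24 h and 8.39, 8.48 and 8.51 at 48 h. The changes were 1.46 ± 0.11 and 1.91 ± 0.11 (limma adjusted p = 2.14e-11 and 9.66e-14), and the further step at 48 h was 0.46 ± 0.11 (0.00662). In MKN-45 it fell from 8.33, 8.17 and 8.32 to 7.73, 7.65 and 7.60 at 24 h (-0.62 ± 0.11, adjusted p = 3.02e-05) and was 8.20, 8.22 and 8.20 at 48 h (-0.06 ± 0.11, adjusted p = 0.646). The 48 h arrays lay within the DMSO range, 0.55 ± 0.11 above those at 24 h (adjusted p = 0.000557). After the external-control shift the 48 h value was -0.39 and called (0.0102). The responses of the lines differed by 2.07 ± 0.16 at 24 h and 1.98 ± 0.16 at 48 h (9.29e-11 and 1.35e-10). HCC827 ranged from 6.19 to 6.92 with no call. MXD1 had 1 kept probe set.

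MXD3 (MAD3), unlike the other MXD genes a factor made in proliferating cells, fell in EBC-1. It was 6.34, 6.26 and 6.28 with DMSO, 6.07, 5.97 and 5.85 at 24 h, and 5.53, 5.88 and 5.83 at 48 h, with changes of -0.33 ± 0.13 and -0.54 ± 0.13 (limma adjusted p = 0.0327 and 0.000721). The 24 h call was lost when any 1 of 5 arrays was left out (EBC-1 DMSO replicates 1, 2 and 3 and EBC-1 SGX-523 24 h replicates 2 and 3), with adjusted p up to 0.122. In MKN-45 the changes were 0.09 and 0.17, and in HCC827 0.33 and 0.26, none of them called. The 0.33 rests on HCC827 SGX-523 24 h replicate 3, at 7.25 against 6.50 and 6.71 on the other 2 arrays.

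MNT, the widely expressed antagonist, and MGA, a large protein with a second DNA-binding domain that serves a Polycomb complex, moved little by their brightest probe sets. MNT ranged from 6.01 to 6.44 over the 18 EBC-1 and MKN-45 arrays, with changes of 0.03, 0.13, -0.13 and -0.24 (EBC-1 then MKN-45, 24 h then 48 h). The last was called (limma adjusted p = 0.047), although its arrays overlapped DMSO, and was 0.0015 with the mean of both probe sets. The other MNT probe set was called higher in the same 4 comparisons, by 0.64, 0.61, 0.33 and 0.24, so the probe sets of MNT disagree. MGA changed by 0.06, -0.10, 0.12 and 0.18, the last called at an adjusted p of 0.045 and lost in 16 of 39 alternatives. In HCC827 the changes of MNT were 0.04 and 0.21 and those of MGA -0.19 and 0.02, with no call. The directions of both genes depend on the scaling: after the external-control shift, MNT was -0.30 and MGA -0.27 in EBC-1 at 24 h, both called lower.

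MLX fell in MKN-45, while its change in EBC-1 was not called. In MKN-45 it was 9.04, 9.10 and 9.02 with DMSO, 8.58, 8.80 and 8.75 at 24 h, and 8.61, 8.62 and 8.56 at 48 h, with changes of -0.34 ± 0.08 and -0.46 ± 0.08 (limma adjusted p = 0.000456 and 1.44e-05). Of 6 probe sets, 6 were lower at 24 h and 5 at 48 h. In EBC-1 its changes were -0.07 and -0.004. They were called after the external-control shift (-0.40 and -0.35), and the 24 h value also with the mean of its probe sets (-0.14, limma adjusted p = 0.04). There 3 of 6 probe sets were lower at each time, and 1 was higher at 48 h. The responses of the lines differed by 0.45 ± 0.11 at 48 h (limma adjusted p = 0.00134). Its partner genes went the other way. MLXIP (MondoA) was 9.36, 9.26 and 9.31 with DMSO in MKN-45, 12.06, 12.10 and 12.08 at 24 h, and 12.02, 11.93 and 11.95 at 48 h, 6.81-fold and 6.29-fold higher (2.77 ± 0.06 and 2.65 ± 0.06, adjusted p = 3.75e-21 and 5.05e-21). In EBC-1 it was 8.02, 8.16 and 8.18 with DMSO, 9.60, 9.67 and 9.80 at 24 h, and 9.60, 9.56 and 9.48 at 48 h, a rise of 1.57 ± 0.06 and 1.43 ± 0.06 (1.71e-16 and 8.93e-16). Of 3 MLXIP probe sets, 2, 2, 2 and 3 were called higher (EBC-1 then MKN-45, 24 h then 48 h). Their changes ran from 0.09 to 1.57 and 0.14 to 1.43 in EBC-1, and from 0.38 to 2.77 and 0.41 to 2.65 in MKN-45. The sizes given above are those of the brightest probe set.

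MLXIPL (ChREBP) rose by 0.68 and 0.79 in EBC-1 and by 0.81 and 0.67 in MKN-45 (SE 0.10 each), with 4 of 4 probe sets called in each. HCC827 showed no call for MLX, MLXIP or MLXIPL against DMSO, with changes from -0.15 to 0.16. TXNIP and ARRDC4, the arrestin-family genes that are textbook targets of MLXIP and MLX, were both higher in the 4 comparisons of the MET-dependent lines. TXNIP rose by 2.01, 2.07, 1.94 and 1.90 (SE 0.04 each) and ARRDC4 by 0.93, 1.02, 2.10 and 2.61 (SE 0.11 each). In HCC827, TXNIP rose by 0.33 at 48 h and ARRDC4 was not called.

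**Figure D2:**
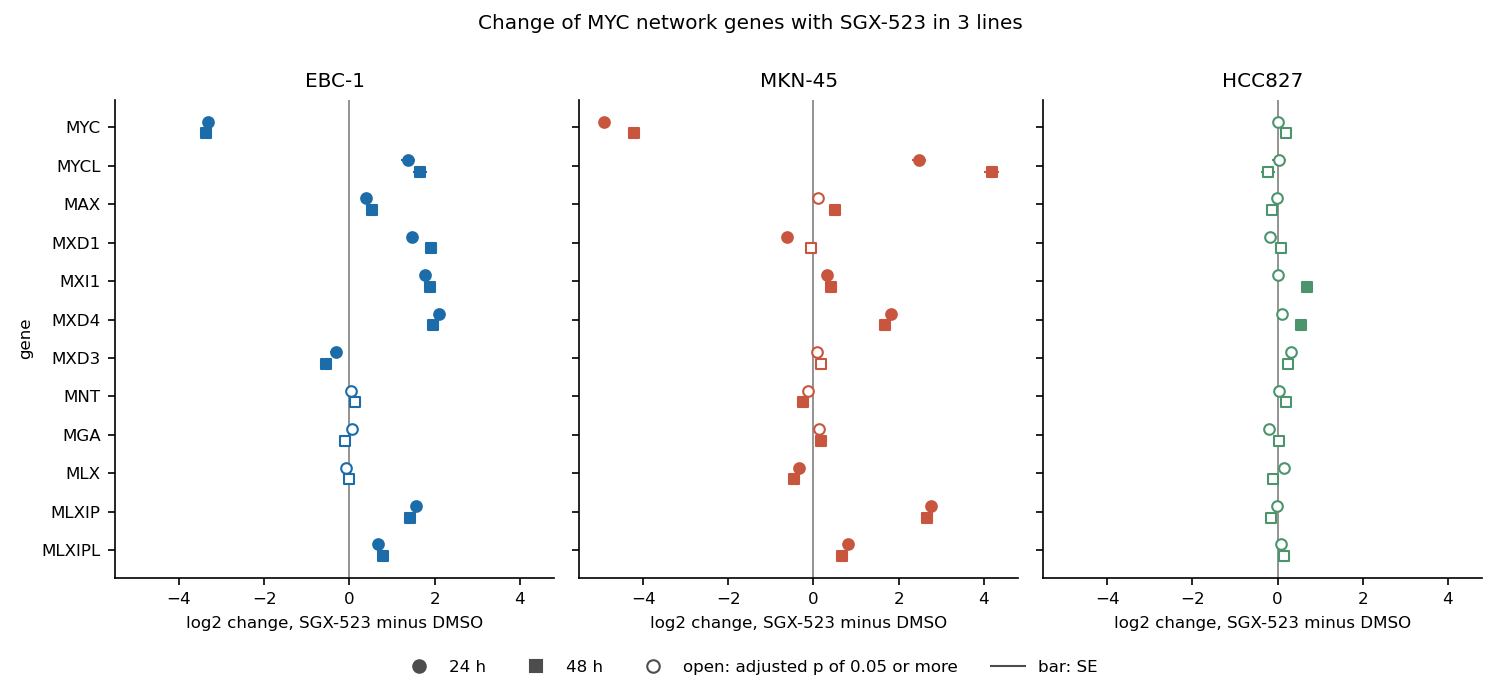
Log2 change (horizontal axis, SGX-523 minus DMSO) of 12 network genes (vertical axis) in each line, as circles at 24 h and squares at 48 h. Bars are the SE of the limma fit, often smaller than the symbols, and open symbols did not reach an adjusted p under 0.05. MYC lies between -3.31 and -4.92 in EBC-1 and MKN-45, MXD1 lies on opposite sides of 0 in these lines at 24 h, and in HCC827 only MXI1 and MXD4 at 48 h are filled.

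Counted over the 10 genes, 5 were called higher and 2 lower in EBC-1 at 24 h and at 48 h, where 59.2% and 61.6% of all genes tested were called in either direction. In MKN-45, 3 were higher and 3 lower at 24 h, and 5 higher and 3 lower at 48 h, where 60.3% and 62.6% of all genes were called. MYCL is 1 of the higher genes in each of these counts, and the filter fixed its place there. These shares of called members are near the background. In HCC827 none of the 10 was called at 24 h by limma (2 at an unadjusted p under 0.05), where 0.0323% of all genes were, and 2 were higher at 48 h, where 22.2% were called and 11.6% were higher. Of the 6 antagonists, 3 rose and 1 fell in EBC-1 at both times. For MKN-45, 2 rose and 1 fell at 24 h, and 3 rose and 1 fell at 48 h. Across all genes, 31.2% to 36.4% were higher and 26.2% to 28.9% lower in these 4 comparisons. The MKN-45 calls of MXI1, MGA and MNT were lost in some alternatives, as given above. In MKN-45, 4 of the 10 (MYC, MYCL, MAX and MXD1) were higher at 48 h than at 24 h, where 24.3% of all genes differed. In EBC-1 that was MXD1 alone of the 10, where 11.1% differed. In HCC827, 3 were higher at 48 h than at 24 h (MXI1 by 0.68, MXD4 by 0.45 and MGA by 0.22) and MLX was lower (-0.26), where 26.5% differed.

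The differences between lines in the response gave 7 of 10 called for EBC-1 against HCC827 at both times (background 51.6% and 48.7%). For MKN-45 against HCC827 they gave 7 at both times (52.7% and 51.1%). MYCL is 1 of the called genes in each of these counts, and the filter, passed only through treated EBC-1 and MKN-45 arrays, favoured its place. Between EBC-1 and MKN-45, 6 of 10 differed at 24 h and 9 at 48 h (42.1% and 49%). In DMSO, 9 of 10 differed between EBC-1 and MKN-45 (67.6%), with MYC higher in EBC-1 by 1.41 ± 0.08, MXD1 lower (-1.73 ± 0.11) and MXI1 lower (-1.47 ± 0.05). Against HCC827 the DMSO counts were 8 of 10 for EBC-1 and 9 for MKN-45 (82.3% and 83.1%), and several directions there turned with the scaling. Under centring, for example, MXD4 in EBC-1 less HCC827 went from -0.26 to 0.43.

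MYC was also set against its antagonists array by array, as the MYC value less the mean of MXD1, MXI1, MXD3, MXD4, MNT and MGA. Relative to DMSO of the same line this difference was -4.17 and -4.25 in EBC-1 at 24 h and 48 h, -5.18 and -4.57 in MKN-45, and -0.003 and -0.09 in HCC827. No treated array of the MET-dependent lines overlapped DMSO, nor did the 48 h arrays of HCC827, while its 24 h arrays did. Most of it came from MYC: the mean change of the 6 antagonists was 0.85 and 0.88 in EBC-1 and 0.26 and 0.36 in MKN-45. The largest antagonist change in MKN-45 was that of MXD4 (1.81 and 1.69). The antagonist median there was 0.105 and 0.176, against 0.051 and 0.056 for all genes, so the antagonists did not rise there as a group. In HCC827 at 48 h both parts rose, MYC by 0.21 (not called) and the antagonist mean by 0.30.

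**Figure D3:**
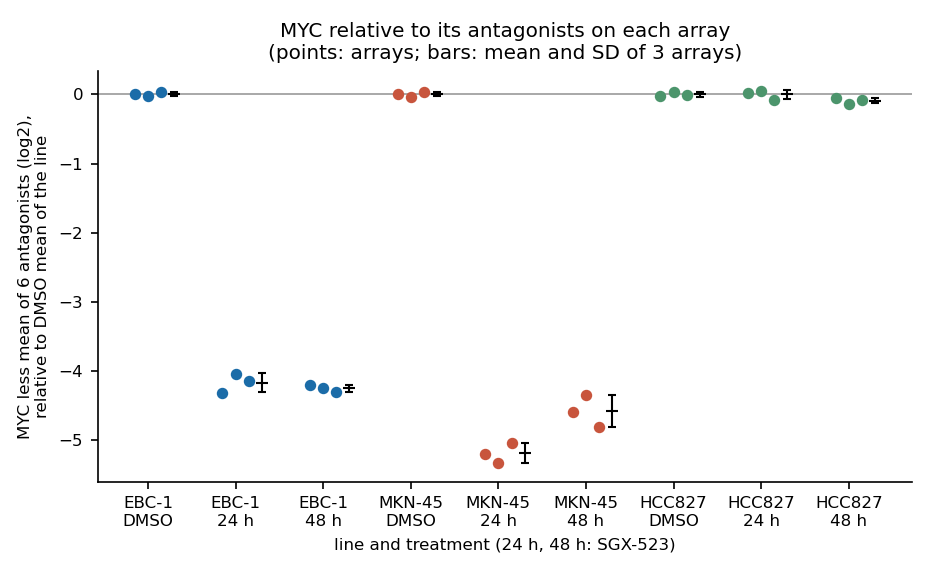
MYC less the mean of 6 antagonists (vertical axis, log2), relative to the DMSO mean of each line, on each of 27 arrays by group (horizontal axis). Points are arrays and bars the mean and SD of 3 arrays. EBC-1 lies at -4.17 and -4.25 and MKN-45 at -5.18 and -4.57 after SGX-523, and HCC827 at -0.003 and -0.09.

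Over the 27 arrays, centred within each line, the genes with values most like those of MYC were DUSP6, a phosphatase induced by ERK signalling (Pearson r = 0.993), KRT18 (0.992), PKM, a pyruvate kinase (0.991), NASP, a histone chaperone (0.990), and PGAM1, a glycolytic enzyme (0.988). DUSP6 changed by -4.07 and -4.51 in EBC-1, -6.26 and -5.27 in MKN-45, and -0.47 and 0.30 in HCC827. The points share the 3 lines and treatments, and most of each r comes from the same DMSO and treated groups. Among the network genes themselves, r with MYC was -0.94 for MXD4, -0.84 for MYCL, -0.71 for MAX and -0.67 for MXI1, and MLX had 0.58. The gene most like MXD4 was TXNIP (0.990), and the one most like MYCL was GLCCI1 (0.970). For MXI1 it was FBXO32, a ubiquitin ligase gene known as a FOXO target (0.979).

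Textbook MYC-activated genes fell almost throughout in the MET-dependent lines. The list of 58 genes for ribosome assembly, nucleotide synthesis, replication and metabolism had 52 tested. Of these, 50 fell in EBC-1 at both times and 46 in MKN-45 at both times, where 28% and 28.9%, and 26.9% and 26.2%, of all genes were lower. The median changes, beside all-gene medians of 0.036 to 0.067, were -1.22 and -1.19 in EBC-1 and -0.86 and -0.79 in MKN-45. NOP16, a nucleolar protein of ribosome assembly, changed by -2.49 and -2.39 in EBC-1 and by -1.64 and -1.08 in MKN-45 (24 h then 48 h, SE 0.06 each). NOLC1, a nucleolar phosphoprotein, changed by -1.96 and -2.05, and by -1.22 and -0.91 (SE 0.04). PA2G4, a growth-regulating RNA-binding protein, changed by -1.44 and -1.32, and by -1.35 and -1.32 (SE 0.05). MCM4, a subunit of the replicative helicase, fell more in MKN-45 (-3.45 and -3.16) than in EBC-1 (-1.71 and -1.87, SE 0.07), and the responses differed by 1.74 ± 0.11 at 24 h (limma adjusted p = 1.73e-12).

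A few genes of that list went the other way, named here after their values were seen. HK2, a hexokinase that starts glycolysis, rose in EBC-1 by 0.26 and 0.48 and fell in MKN-45 (-3.11 and -2.96), and the responses differed by 3.37 ± 0.13 at 24 h (limma adjusted p = 5.27e-16). MAP3K6 was higher in EBC-1 at 24 h (0.31), TMEM97 in MKN-45 at both times (0.38 and 0.21) and MPHOSPH10 in MKN-45 at 48 h (0.43). After the external-control shift no gene of the list was called higher in any of the 4 comparisons, and 50 of 52 were lower in each. That shift moved all genes down, to all-gene medians of -0.30 to -0.27. More genes of any kind were then called lower, as given above for EBC-1 at 24 h, so these counts are not a result about the list alone.

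Of 9 tested classical E-box targets outside that list, 7 fell in each of the 4 comparisons, where 26.2% to 28.9% of all genes were lower. ODC1, the first enzyme of polyamine synthesis, changed by -1.66 and -1.83 in EBC-1 and by -1.05 and -0.82 in MKN-45. CAD, which starts pyrimidine synthesis, changed by -1.99 and -1.97, and by -1.46 and -1.20. NCL, the nucleolar protein nucleolin, changed by -0.93 and -0.99, and by -0.61 and -0.53. LDHA, lactate dehydrogenase, fell less in EBC-1 (-0.34 and -0.16) than in MKN-45 (-1.90 and -2.18), a difference of 1.56 ± 0.07 at 24 h (limma adjusted p = 8.60e-15). The exceptions were PTMA, not called in any of the 4, and CCND2, which rose in MKN-45 at 24 h by 1.08 and was otherwise not called.

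**Figure D4:**
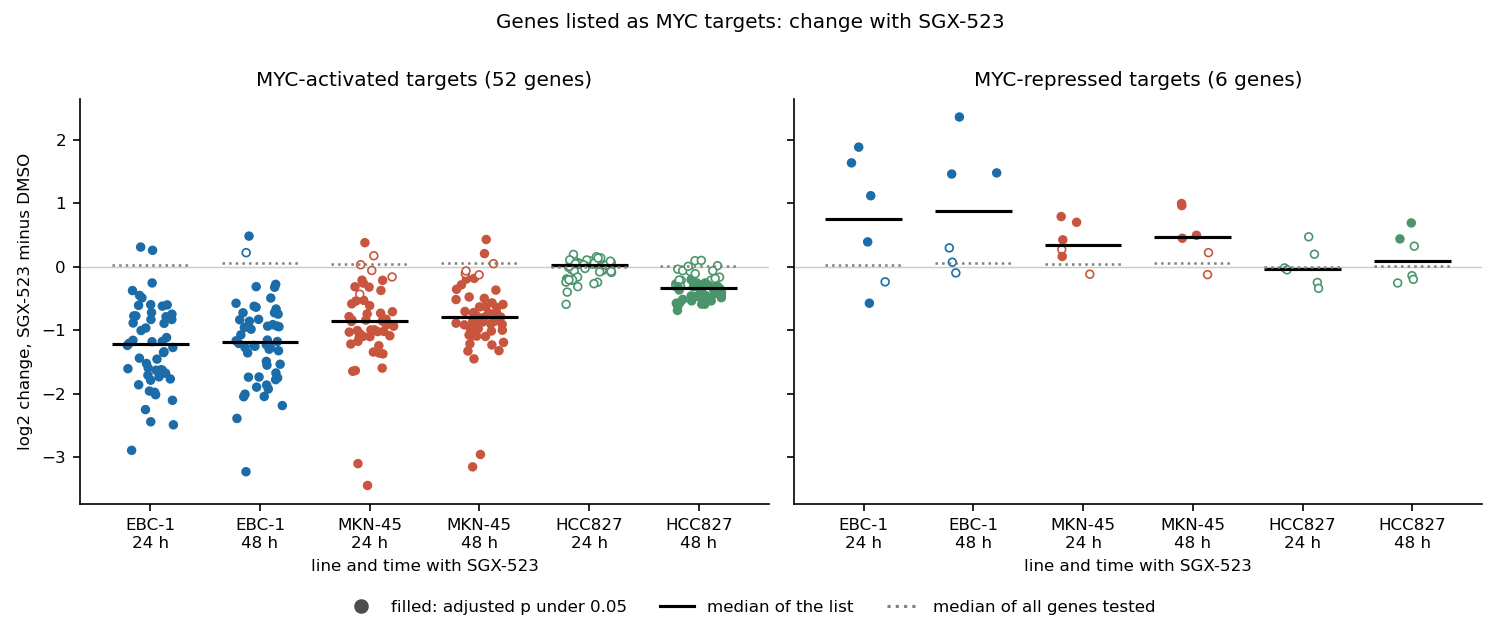
Log2 change with SGX-523 (vertical axis) of 52 genes listed as MYC-activated (left) and 6 as MYC-repressed (right) in each line and time (horizontal axis). Each point is 1 gene, filled where its adjusted p was under 0.05, black bars are list medians and dotted bars medians of all genes tested. The activated genes centre on -1.22 and -1.19 in EBC-1, -0.86 and -0.79 in MKN-45, 0.03 in HCC827 at 24 h and -0.33 in HCC827 at 48 h.

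In HCC827 none of the 52 MYC-activated genes was called at 24 h by limma (9 were lower and none higher at an unadjusted p under 0.05). At 48 h, 36 of them fell, where 10.7% of all genes were lower, and none rose, also at an unadjusted p under 0.05. MYC itself was not called and lay above its DMSO arrays. The median was -0.33, against 0.007 for all genes. NOP16 changed by -0.45 ± 0.06 (limma adjusted p = 3.29e-06), PA2G4 by -0.33 ± 0.05 (5.57e-05), MCM4 by -0.28 ± 0.07 (0.00734) and NOLC1 by -0.25 ± 0.04 (0.000176). The E-box targets ODC1 and CAD changed by -0.89 ± 0.06 (1.74e-10) and -0.48 ± 0.13 (0.00728). Against the 24 h arrays, 32 of the 52 were lower at 48 h and none higher, where 10.7% of all genes were lower. Without HCC827 SGX-523 24 h replicate 3, 40 of 52 were lower, where 19% of all genes were. After the external-control shift 20 of 52 were lower, with a median of -0.25, against 0.08 for all genes.

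Genes that MYC is known to repress gave a mixed picture. Of 6 tested, 4 and 3 rose in EBC-1 and 4 and 4 in MKN-45, where 31.2% and 32.7%, and 33.4% and 36.4%, of all genes were higher. NDRG1, a stress and differentiation gene, rose by 1.12 and 1.48 in EBC-1, 0.16 and 0.45 in MKN-45 and 0.69 in HCC827 at 48 h. CDKN1B (p27), a cell cycle inhibitor, rose by 1.64 and 1.46 in EBC-1, by 0.50 in MKN-45 at 48 h and by 0.44 in HCC827 at 48 h. CDKN2B (p15) rose by 1.89 and 2.36 in EBC-1 and was not called in MKN-45 (-0.12 at both times). CDKN1A (p21) fell in EBC-1 at 24 h (-0.57) and rose in MKN-45 by 0.70 and 0.97. NDRG2 rose in both lines at 24 h only (0.39 and 0.43). After the external-control shift the list's median in MKN-45 at 24 h was 0.001, against 0.35 before it.

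Proteins that work with MYC changed in both directions: of 15 tested, 5 rose and 6 fell in EBC-1 at each time, and 3 rose and 8 fell in MKN-45 at each time. Of all genes, 31.2% to 36.4% were higher and 26.2% to 28.9% lower in these comparisons, so the EBC-1 counts lie near the background. With arrays shifted by the external controls, 2 were higher and 9 lower in EBC-1 at each time, and 1 was higher and 12 and 10 lower in MKN-45. All genes moved down with that shift, to all-gene medians of -0.30 to -0.27. AURKA, a mitotic kinase that stabilizes MYC proteins, changed by -2.53 and -3.14 in EBC-1 and by -2.21 and -2.65 in MKN-45. RUVBL1, RUVBL2 and WDR5, chromatin cofactors of MYC, also fell in all 4 comparisons, at 48 h by -1.92, -1.38 and -0.86 in EBC-1 and by -1.17, -1.25 and -0.84 in MKN-45. PPP2R5A, a subunit of the phosphatase PP2A, rose in EBC-1 by 1.16 and 1.46, and ZBTB17 (MIZ1), through which MYC represses genes, rose in MKN-45 by 1.00 and 0.92.

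Of 4 tested corepressors of the MXD proteins and MNT, 1 rose and 2 fell in EBC-1 at 24 h, and 2 rose and 2 fell at 48 h. In MKN-45, 2 rose and 1 fell at each time. Of all genes, 31.2% to 36.4% were higher and 26.2% to 28.9% lower in these comparisons. After the external-control shift none of the 4 was called higher in EBC-1 at 24 h. On the deposited scale SIN3B rose by 0.41 and 0.78 in EBC-1 and by 0.78 and 1.07 in MKN-45. HDAC1, a histone deacetylase of the same complex, changed by -0.25 and -0.47, and by -0.58 and -0.63. Of 7 tested partners of MGA in the Polycomb complex PRC1.6, 5 and 4 fell in EBC-1 and 5 and 4 in MKN-45, and none rose, also at an unadjusted p under 0.05. Of all genes, 28% and 28.9%, and 26.9% and 26.2%, were lower. TFDP1, the partner of E2F factors, changed by -1.24 and -1.32, and by -1.23 and -1.18. PCGF6, the subunit that defines the complex, changed by -0.60 and -0.78, and by -0.94 and -0.88. In HCC827 at 48 h, 3 of the 7 were called lower, where 10.7% of all genes were, and these calls were lost after the external-control shift.

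Cell cycle genes fell with MYC in the MET-dependent lines, and most were not called in HCC827. All 10 listed genes fell in the 4 comparisons, with medians of -3.22 and -4.09 in EBC-1 and -3.10 and -3.59 in MKN-45, where 26.2% to 28.9% of all genes were lower. TOP2A, the topoisomerase of dividing cells, changed by -3.15 and -5.47, and by -3.05 and -4.63. In HCC827 at 48 h, 1 rose (TOP2A by 0.25) and 1 fell (CCNE2, -0.86), and the other 8 were not called, where 22.2% of all genes were called. How far fewer cycling cells set the levels of the network genes was not tested, and in bulk RNA fewer cells of a state and less RNA per cell cannot be told apart.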

How the data were processed

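Gene expression of 9 groups (3 lines, each with DMSO and with SGX-523 at both times) was measured on 27 one-colour arrays, 3 per group, with groups taken from the sample titles. Per the labels' protocols, the labelling reaction was primed from the 3' end of RNA. The authors deposited log2 values, 1 per probe set and array, between 1.87 and 14.4. The submitters' processing notes name MAS5 but not what it did, and the way arrays were normalized was not given in the sources used here. From their medians, the HCC827 arrays seem to have been normalized apart.

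Of 49395 probe sets, 102 were controls, 44994 named 1 gene, 1832 several and 2467 none, and the RefSeq table held the Entrez ID of 44967. Kept were probe sets that reached the array median on at least 3 arrays (29694 kept), and the brightest kept single-gene probe set stood for its gene, which gave 12390 genes. Tests used limma 3.58.1 (R 4.3.3; eBayes with a trend) on 9 group means, with 18 residual degrees of freedom and Benjamini-Hochberg adjustment over all genes, and the method was tested on simulated data. Interactions compare the lines' responses. The alternatives were quantile normalization, centring, 64 added, no filter and a stricter filter at the 75th percentile, no trend, one fit per line, a replicate block, the mean of probe sets and each array left out. Array weights, the external-control shift and a fit of the EBC-1 and MKN-45 arrays only were added after the data were seen.

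Members and lists were chosen with earlier results of these data known, and the lists come from textbook knowledge. The activated and Polycomb lists share 1 gene. The text names all members and 3 further network genes, and the genes most like MYC (5) and like members called in both MET-dependent lines at both times (1 each). From each list it names some or all of the 4 genes with the smallest larger adjusted p of EBC-1 and MKN-45 at 24 h. For the corepressor, Polycomb and cell cycle lists fewer than 4 are named, with no stated rule for the choice. HK2, MAP3K6, TMEM97, MPHOSPH10, CDKN2B, PTMA, CCND2, CCNE2, PPP2R5A and ZBTB17 were named after their values were seen. The protein sequences were not used here.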

Additional observations from a re-analysis of the deposited data

Results flagged for a closer look

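The responses to SGX-523 of 12 network genes were compared between lines with an interaction term in limma, and the differences in log2 change below are those with an adjusted p under 0.05. MYCL passed the filter only through treated EBC-1 and MKN-45 arrays, so its differences from HCC827 were favoured in advance. In a fit with no filter their limma adjusted p was 4.25e-05 and 3.88e-07 for EBC-1 (24 h then 48 h). For MKN-45 it was 4.12e-09 and 4.54e-14.

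Of EBC-1 less HCC827 at 24 h, MYC differed by -3.33, MYCL by 1.35, MAX by 0.41, MXD1 by 1.64, MXD3 by -0.65, MXD4 by 2.01, MXI1 by 1.77, MLXIP by 1.58 and MLXIPL by 0.60. At 48 h the same 9 genes differed: MYC by -3.58, MYCL by 1.87, MAX by 0.65, MXD1 by 1.84, MXD3 by -0.80, MXD4 by 1.43, MXI1 by 1.19, MLXIP by 1.58 and MLXIPL by 0.63. MXI1 and MXD4 rose in HCC827 at 48 h as well, and their differences were smaller at that time.

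Of MKN-45 less HCC827 at 24 h, MYC differed by -4.93, MYCL by 2.44, MXD1 by -0.43, MXD4 by 1.71, MXI1 by 0.30, MLX by -0.50, MGA by 0.32, MLXIP by 2.78 and MLXIPL by 0.74. At 48 h, MYC differed by -4.42, MYCL by 4.40, MAX by 0.62, MXD4 by 1.15, MXI1 by -0.28, MNT by -0.45, MLX by -0.35, MLXIP by 2.80 and MLXIPL by 0.51. The sign of the MXI1 difference turned between the times on the deposited scale. Its 24 h value was called in 1 of 5 kept probe sets and was negative after the external-control shift, so the turn rests on the scaling.

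Of EBC-1 less MKN-45 at 24 h, MYC differed by 1.60, MYCL by -1.09, MAX by 0.29, MXD1 by 2.07, MXD4 by 0.30, MXI1 by 1.47 and MLXIP by -1.20. At 48 h, MYC differed by 0.84, MYCL by -2.53, MXD1 by 1.98, MXD3 by -0.72, MXD4 by 0.28, MXI1 by 1.47, MNT by 0.36, MLX by 0.45, MGA by -0.28 and MLXIP by -1.23. MXD1 and MXI1 thus responded more in EBC-1, and MYCL and MLXIP more in MKN-45. For MXD4, 1 of 5 kept probe sets was called at each time. Their values ran from -0.27 to 0.32 at 24 h and from -0.19 to 0.28 at 48 h, so its probe sets disagree in sign.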

How the results depend on the processing

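Over 39 alternatives each, the changes of MYC and MXD4 in both MET-dependent lines, and of MXD1 and MXI1 in EBC-1, kept their direction and their call. The low arrays of MYC in MKN-45 and of MYCL limit the size of their changes: over the alternatives MYCL changed by 0.41 to 1.52 in EBC-1 at 24 h and by 2.45 to 4.39 in MKN-45 at 48 h. For other genes, direction was compared only where a value passed the threshold in either setting, and the cause of each change below was not tested. After the external-control shift, values turned in EBC-1 at 24 h for MNT (-0.30) and MGA (-0.27), in MKN-45 at 24 h for MAX (-0.24) and MXI1 (-0.034), and at 48 h for MGA (-0.15). The differences from HCC827 at 24 h that turned with it were MAX in EBC-1 (-0.019) and, in MKN-45, MAX (-0.33), MXI1 (-0.15) and MGA (-0.14). With the mean of probe sets, MNT in MKN-45 at 48 h was 0.0015, its 24 h difference of EBC-1 from HCC827 was 0.27, and the DMSO differences of MKN-45 from HCC827 were -0.11 for MXI1 and -0.27 for MLXIP. With 64 added, the 48 h difference in MYC between EBC-1 and MKN-45 was -0.067. DMSO levels of EBC-1 less HCC827 turned with quantile normalization for MYCL (0.29), MXD1 (0.34), MXD3 (0.38), MXD4 (0.29) and MGA (0.084), and with centring for MYCL (0.10), MXD1 (0.48), MXD3 (0.48), MXD4 (0.43), MNT (0.11) and MGA (0.28). Those of MKN-45 less HCC827 turned with quantile normalization for MYCL (0.47), MNT (0.036), MLX (0.17) and MLXIPL (0.19), and with centring for MYCL (0.52), MXD3 (0.051), MNT (0.19), MLX (0.43), MGA (0.044) and MLXIPL (0.34).

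Of the 10 members, 0 to 1 were called in HCC827 at 24 h as arrays were left out in turn, and 2 to 5 at 48 h, where the mean of probe sets called 4 and array weights, whose estimation stopped short of its convergence tolerance, 7. Between the times in EBC-1, 1 to 2 were called as arrays were left out, and 2 with quantile normalization and with array weights. In HCC827, 2 were called between the times in a separate fit and with the mean of probe sets. Without HCC827 SGX-523 24 h replicate 3, MAX (-0.12, limma adjusted p = 0.0419), MXD3 (0.26, 0.033) and MYC joined the calls in HCC827 at 48 h. Over all genes, 4 were called in HCC827 at 24 h, but 2394, 2675 and 20 without its treated replicate 1, 2 or 3, and 18 with quantile normalization, 11 with 64 added, 1 with no filter and 0 with no trend, a separate fit or the mean of probe sets. Leaving out 1 other array gave 0 to 4. At 48 h, 2755 became 1217 in a separate fit, 4649 without HCC827 SGX-523 24 h replicate 3, 5465 with array weights and 1793 after the external-control shift. Between the times, counts for EBC-1 were 741 after that shift and 2673 to 3046 in a separate fit, with array weights, without that array or from EBC-1 and MKN-45 arrays only, against 1371. For MKN-45 they were 1982 after the shift and 4618 to 4919 in the last 3 of these, against 3008, and for HCC827 1059 in a separate fit and 1973 after the shift, against 3286.

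The deviations of same-numbered arrays correlated over 0.1 in 1, 2 and 2 of 9 pairs in the 3 lines. Differently numbered arrays were not compared in this way, so whether the replicate numbers pair the samples was not settled. With the replicate block, 7346, 7603, 7465, 7748, 0 and 2612 genes were called in the comparisons with DMSO (EBC-1, MKN-45, HCC827, 24 h then 48 h). MXD4 between EBC-1 and MKN-45 at 24 h and 48 h (limma adjusted p = 0.0503 and 0.0566), MNT in MKN-45 at 48 h (0.0584) and the 48 h difference of MNT between these lines (0.0517) were lost, and MXD1 between the times in HCC827 (0.0392) and in DMSO of EBC-1 against HCC827 (0.0338) was gained.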
